A study of Cavia porcellus with 44 samples.

Results

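The genes described here build the sugar chains of the cell surface and of the matrix: glycosyltransferases, which add 1 sugar after another to a protein, lipid or growing chain, and sulfotransferases, which place sulfate groups on glycosaminoglycans. They were taken by their gene symbols. The symbols were those of the chondroitin, heparan and keratan sulfate enzymes, the hyaluronan synthases, the GALNT enzymes that start mucin-type O-glycans, and the galactosyl-, N-acetylgalactosaminyl-, N-acetylglucosaminyl-, sialyl- and fucosyltransferases. Of 7747 symbols with variance-stabilized values, 62 were such genes. Another 19 symbols of the same families had too few reads for that table, 5 of them with no count in any animal and 14 with at most 178 counts over all animals. The 62 genes had passed a minimum on the total over all animals, so a gene present in 1 group only could pass. The minimum of 200 counts was reached only through the animals on high fat feed by 8 of the 62 (B3GALT2, B3GALT5, B4GALNT2, B4GALNT3, GALNT3, GALNTL5, HAS2 and ST8SIA3), beside 639 of all 7750 tested genes (8.25%), and such genes are weighted towards calls of higher levels on that feed.

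Heparan and chondroitin sulfate are long chains carried by proteoglycans; they are joined to the core protein through a shared linker, polymerized in the Golgi and then sulfated in patterns that set which growth factors, chemokines and lipoproteins they bind. Hyaluronan is made at the plasma membrane, carries neither sulfate nor core protein and accumulates in injured and scarred liver. The glycans of secreted liver proteins are mostly N-glycans capped with sialic acid, whereas mucin-type O-glycans are prominent in bile duct and other epithelia.

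Liver RNA was sequenced after 32 weeks from female Hartley guinea pigs, animals that, like humans, need vitamin C (vitC) from their food. LFH animals (n = 8) ate low fat feed (3.8% fat, no added cholesterol) with 2000 mg vitC/kg throughout, and HFH animals (n = 8) high fat feed (20% fat, 0.35% cholesterol, with added sucrose) with 2000 mg vitC/kg throughout. All 4 other groups shared 16 weeks of the high fat feed at 50 mg vitC/kg and differed in the next 16 weeks: HFL/HFL (n = 10) stayed on it, HFL/HFH (n = 6) ate high fat feed at 2000 mg vitC/kg, HFL/LFL (n = 6) low fat feed at 50 mg vitC/kg and HFL/LFH (n = 6) low fat feed at 2000 mg vitC/kg. The low fat groups were pair-fed to high fat groups, and the feeds differ in more than fat. The age of the animals is not given in the sources used here. Each animal was 1 library, and the total count per animal ranged from 21133807 to 35427724 (median 25652393). Levels are CPM (counts scaled to a common library size) and are not corrected for gene length, so they are compared between animals and not between genes. A count of 3, taken as the floor of a single library, equals 0.0626 to 0.170 CPM and covers counting error only. The 62 genes took 0.262% to 0.477% of an animal's counts, and 14 of them had a mean under 1 CPM over all animals. In 10 of these 62 genes, HAS2 and GALNT3 in LFH among them, the mean of at least 1 low fat group lay under the mean floor of its libraries, so that fitted fold changes against that group rest on few counts and their size is uncertain.

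Whole liver was measured, so fewer cells of a type and less RNA per cell cannot be told apart. Markers are called higher or lower where their edgeR adjusted p over all 7750 genes tested was under 0.05. Of all tested genes 27.7% were higher and 21.7% lower in HFH than in LFH. These shares were 19.4% and 16.5% in HFL/HFH against HFL/LFH, and 19.7% and 18.1% in HFL/HFL against HFL/LFL. The hepatocyte markers ALB, SERPINA1 and ASGR1, 3 of 10 listed that were measured, were present in every group, with a summed level of 68683 to 215398 CPM in the low fat groups and 20529 to 87961 CPM in the high fat groups. All 3 were lower in HFH than in LFH (log2 fold changes of -1.60 to -0.65), 1 was lower in HFL/HFH than in HFL/LFH and 2 in HFL/HFL than in HFL/LFL. The 4 measured cholangiocyte markers of 9 listed were higher on the high fat feed in all 3 feed comparisons, with sums of 112 to 394 CPM against 649 to 1363 CPM. Of the 6 measured stellate cell and fibroblast markers of 12 listed, 4 were higher and 1 lower in HFH than in LFH, with sums of 417 to 1050 CPM in the low fat groups and 793 to 2679 CPM in the high fat groups. In HFL/HFH against HFL/LFH 3 of them were higher and 1 lower, as in HFL/HFL against HFL/LFL. Sums of the 5 measured macrophage markers of 12 were 188 to 513 CPM against 192 to 469 CPM, of the 5 measured endothelial markers of 11 they were 583 to 914 CPM against 455 to 676 CPM, and of the 8 measured T cell and NK cell markers of 10 they were 126 to 287 CPM against 62.2 to 190.3 CPM. Of the 5 macrophage markers, 3 were higher and 1 lower in HFH than in LFH and in HFL/HFH than in HFL/LFH, and 2 were higher and 1 lower in HFL/HFL than in HFL/LFL. Of the 5 endothelial markers 1 was higher and 1 lower in HFH than in LFH, 1 was lower in HFL/HFH than in HFL/LFH and 4 were lower in HFL/HFL than in HFL/LFL. Of the 8 T cell and NK cell markers 2 were higher and 1 lower in the comparisons at high vitC. In HFL/HFL against HFL/LFL 1 of them was lower and none higher. Of the 7 neutrophil markers 4 were higher in HFL/HFH than in HFL/LFH and 1 in HFL/HFL than in HFL/LFL. No neutrophil marker was called in HFH over LFH. B cell and plasma cell markers (8 measured of 9) summed to 359 to 592 CPM against 315 to 610 CPM, and neutrophil markers (7 measured of 8) to 3.94 to 51.6 CPM against 6.82 to 57.6 CPM. Of the 6 tested B cell and plasma cell markers 1 was lower in each of the 3 feed comparisons. Of all these markers, MPO in HFL/LFL was the only one at 0 in every animal of a group. The part of any cell type in the results below was not tested.

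The first question was how these genes differ between high fat and low fat feed. It was asked 3 times in separate animals: in animals kept on 1 feed throughout (HFH over LFH), and in animals that stayed on or left the high fat feed after the first 16 weeks, at high vitC (HFL/HFH over HFL/LFH) and at low vitC (HFL/HFL over HFL/LFL). Unless named otherwise, sets of 3 log2 fold changes below are in this order, and a gene is called higher or lower where its edgeR adjusted p over all 7750 genes tested was under 0.05. In HFH, 22 of the 62 genes (35.5%) were higher and 6 (9.68%) were lower than in LFH, where 27.7% and 21.7% of all tested genes were. In HFL/HFH 15 (24.2%) were higher and 6 (9.68%) lower than in HFL/LFH, beside 19.4% and 16.5% of all genes. In HFL/HFL 13 (20.97%) were higher and 7 (11.3%) lower than in HFL/LFL, beside 19.7% and 18.1% of all genes. The median log2 fold changes of the 62 genes were 0.27, 0.16 and -0.020, and those of all tested genes 0.064, 0.010 and 0.034. Of the higher calls 7, 6 and 4 were among the 8 genes that passed the minimum through the high fat groups, and of the other 54 genes 15 (27.8%), 9 (16.7%) and 9 (16.7%) were higher. Of the calls, 5, 4 and 2 were of genes with a mean under 1 CPM.

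In all 3 comparisons 10 genes (16.1%, beside 13.4% of all tested genes) were higher on the high fat feed: the hyaluronan synthase HAS2, the O-glycan starters GALNT3, GALNT6, GALNT7 and GALNT12, the chondroitin sulfotransferase CHST3, the branching enzyme MGAT5, the sialyltransferase ST6GALNAC4, and B3GALT5 and B4GALNT2, which act on the ends of chains. Of these, HAS2, GALNT3, B3GALT5 and B4GALNT2 had passed the count minimum only through the high fat groups, so nothing is read from this share. Lower in all 3 were FUT10, GALNT11 and ST6GAL1 (3 genes, 4.84%, beside 10.5%). No gene was called in opposite directions (0.206% of all tested genes were), 28 (45.2%) were called in none, 12 (19.4%) in 1 and 9 (14.5%) in 2 of the comparisons, beside 38.6%, 23.6% and 13.8% of all tested genes. Levels did not overlap between the groups for 7, 10 and 5 of the 62 genes (11.3%, 16.1% and 8.06%), where 16.9%, 16.2% and 9.90% of all tested genes did not overlap.

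**Figure D1:**
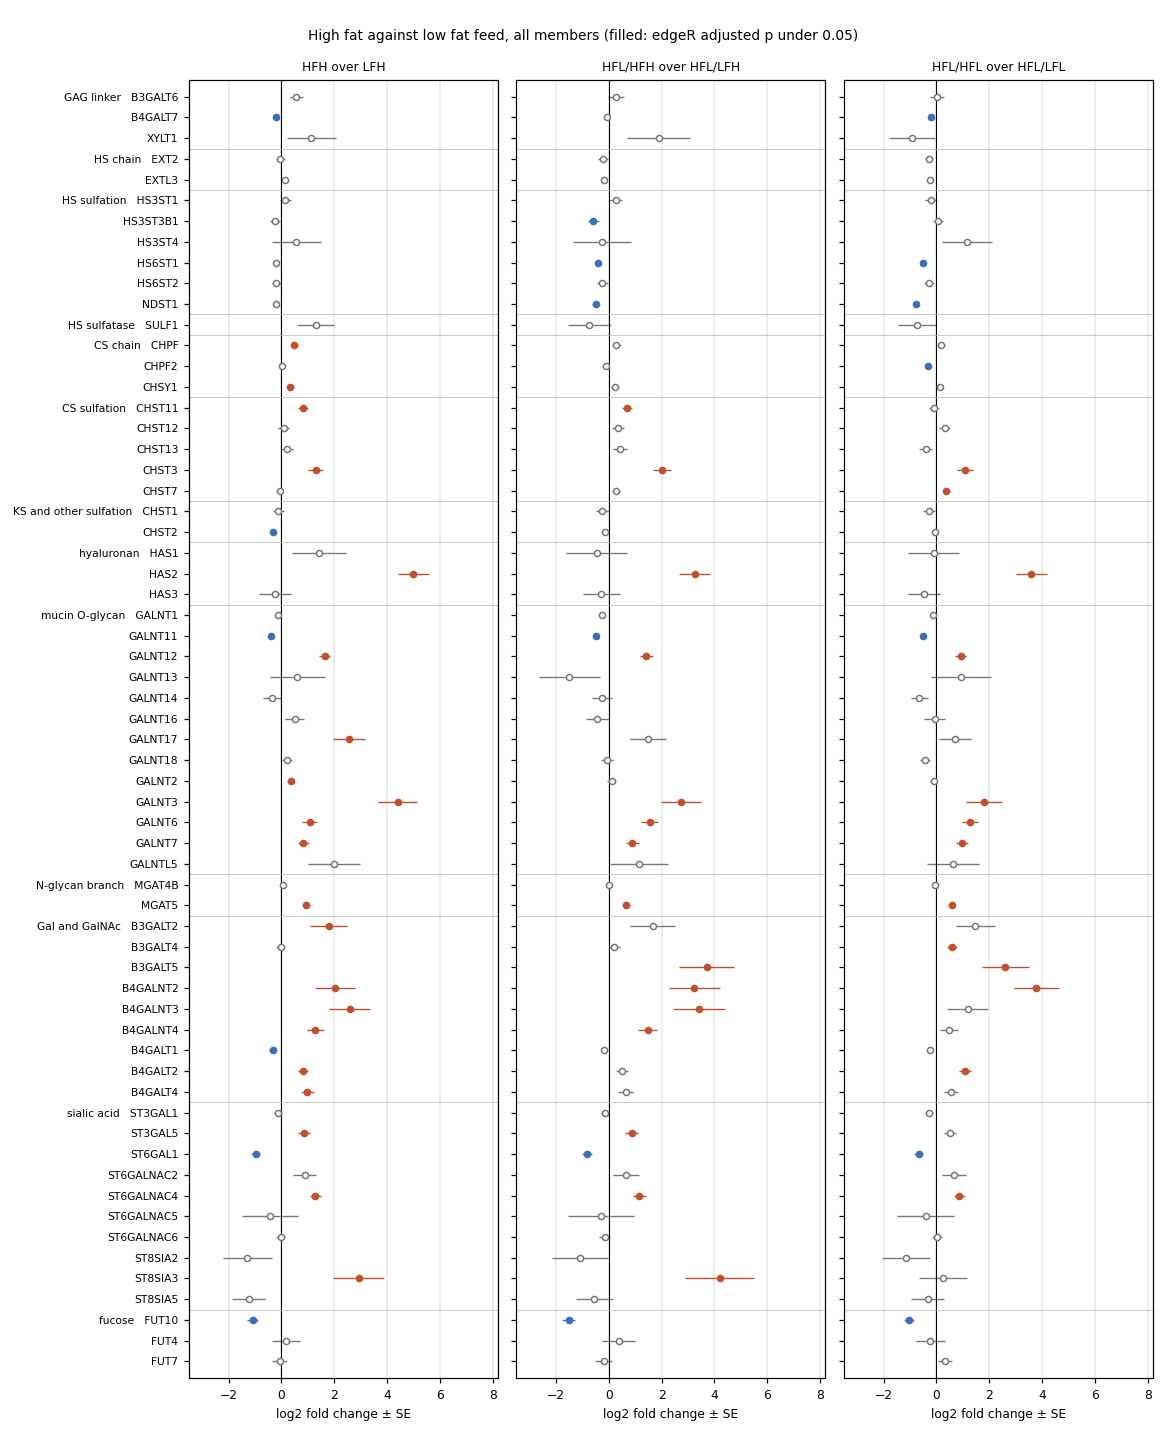
Log2 fold change of each of the 62 genes on high fat over low fat feed in the 3 comparisons (x axis, with SE), ordered by the step of glycan synthesis (y axis). Filled points had an edgeR adjusted p under 0.05, orange for higher and blue for lower on the high fat feed, and B3GALT5 has no point in HFH over LFH because every LFH animal was at 0. HAS2 and GALNT3 lie farthest to the right in HFH over LFH, with FUT10 and ST6GAL1 the filled points farthest to the left.

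HAS2 encodes the synthase that makes most long-chain hyaluronan in many tissues. HAS2 ranged from 0 to 0.263 CPM in LFH (median 0.0683), from 0.137 to 0.840 CPM in HFL/LFH (median 0.305) and from 0 to 0.624 CPM in HFL/LFL (median 0.137). In HFH, HAS2 ranged from 1.40 to 7.21 CPM (median 3.34), while values ran from 1.67 to 4.34 CPM in HFL/HFH (median 3.84) and from 1.55 to 3.46 CPM in HFL/HFL (median 2.61). All 24 animals on the high fat feed, at 1.40 CPM or more, were above all 20 animals on the low fat feed, at 0.840 CPM or less. HAS2 was the only gene of the 62 (1.61%) whose levels did not overlap between the feeds over all animals, beside 3.96% of all tested genes. Its log2 fold changes were 5.0 (SE 0.58, edgeR adjusted p = 2.11e-09) in HFH over LFH, 3.26 (SE 0.59, edgeR adjusted p = 2.47e-05) in HFL/HFH over HFL/LFH and 3.59 (SE 0.59, edgeR adjusted p = 5.79e-06) in HFL/HFL over HFL/LFL. The 8 LFH animals held 17 counts of HAS2 in total, a mean of 0.0993 CPM under their mean floor of 0.146 CPM, and the 8 HFH animals 874. Without HFL/LFL animal 53 the last value was 4.38. The other hyaluronan synthases had means under 1 CPM and were not called. HAS1 had log2 fold changes of 1.42, -0.46 and -0.11 and HAS3 of -0.24, -0.29 and -0.47, with edgeR adjusted p of 0.258 or more and 0.575 or more.

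Among the enzymes that start mucin-type O-glycans by adding N-acetylgalactosamine to serine or threonine, 6 of 13 were higher and 1 was lower in HFH than in LFH, beside 27.7% and 21.7% of all tested genes. At the change of feed 4 were higher and 1 was lower at both vitC levels, beside 19.4% and 16.5% of all genes at high vitC and 19.7% and 18.1% at low vitC. GALNT3, higher in each comparison, and GALNTL5 had passed the count minimum only through the high fat groups, so nothing is read from these shares. GALNT3, an enzyme known for protecting the hormone FGF23 from cleavage, had the largest fitted change among these enzymes in HFH over LFH. GALNT3 ranged from 0 to 0.546 CPM in LFH (median 0), from 0 to 0.884 CPM in HFL/LFH (median 0.168) and from 0.244 to 0.624 CPM in HFL/LFL (median 0.491). In HFH, GALNT3 ranged from 0.555 to 6.68 CPM (median 2.17), while values ran from 0.968 to 3.15 CPM in HFL/HFH (median 2.06) and from 0.348 to 4.82 CPM in HFL/HFL (median 0.943). GALNT3 had no count in 5 of the 8 LFH animals, and all 8 HFH animals lay above them, as did all 6 HFL/HFH animals above HFL/LFH. Its log2 fold changes were 4.40 (SE 0.73, edgeR adjusted p = 3.09e-06) in HFH over LFH, 2.73 (SE 0.77, edgeR adjusted p = 0.00441) in HFL/HFH over HFL/LFH and 1.80 (SE 0.69, edgeR adjusted p = 0.0355) in HFL/HFL over HFL/LFL. The call in HFL/HFL over HFL/LFL held in 9 of the 16 fits that left out 1 animal, with adjusted p from edgeR up to 0.0915. The 8 LFH animals held 22 counts of GALNT3 in total, under the floor on average, and the first value was 5.26 without LFH animal 27 and the second 3.45 without HFL/LFH animal 33.

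GALNT12 is an enzyme of the same step that is strongly made in the gut epithelium. GALNT12 ranged from 5.52 to 13.2 CPM in LFH (median 9.14), from 5.55 to 14.3 CPM in HFL/LFH (median 8.85) and from 9.21 to 12.3 CPM in HFL/LFL (median 10.1). In HFH, GALNT12 ranged from 20.1 to 44.8 CPM (median 27.4), while values ran from 14.7 to 34.5 CPM in HFL/HFH (median 27.6) and from 11.3 to 32.5 CPM in HFL/HFL (median 18.95). Of 24 animals on high fat feed, 22 were above every animal on low fat feed. GALNT12 had log2 fold changes of 1.63 (SE 0.22, edgeR adjusted p = 3.78e-08) in HFH over LFH, 1.41 (SE 0.25, edgeR adjusted p = 1.54e-05) in HFL/HFH over HFL/LFH and 0.92 (SE 0.23, edgeR adjusted p = 0.0013) in HFL/HFL over HFL/LFL. GALNT17 was both scarce and variable. GALNT17 ranged from 0 to 1.05 CPM in LFH (median 0.446), from 0.229 to 1.13 CPM in HFL/LFH (median 0.469) and from 0.284 to 2.25 CPM in HFL/LFL (median 0.597). In HFH, GALNT17 ranged from 0.131 to 6.88 CPM (median 2.37), while values ran from 0.909 to 2.59 CPM in HFL/HFH (median 1.44) and from 0.391 to 3.06 CPM in HFL/HFL (median 1.08). HFH spanned nearly the whole range of the other groups, from 1 animal below every HFL/LFL animal to 5 above every LFH animal. GALNT17 had log2 fold changes of 2.55 (SE 0.60, edgeR adjusted p = 0.000509) in HFH over LFH, 1.48 (SE 0.68, edgeR adjusted p = 0.0865) in HFL/HFH over HFL/LFH and 0.72 (SE 0.60, edgeR adjusted p = 0.364) in HFL/HFL over HFL/LFL. GALNT6 (log2 fold changes of 1.07, 1.55 and 1.26) and GALNT7 (0.83, 0.89 and 0.97), which prefers peptides that already carry a sugar, were higher in all 3 comparisons. HFL/HFH did not overlap HFL/LFH for either of them.

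GALNT11 went the other way. GALNT11 ranged from 66.4 to 99.3 CPM in LFH (median 86.7), from 62.3 to 103 CPM in HFL/LFH (median 90.4) and from 71.7 to 101 CPM in HFL/LFL (median 80.9). In HFH, GALNT11 ranged from 50.7 to 82.9 CPM (median 65.5), while values ran from 56.9 to 67.96 CPM in HFL/HFH (median 61.5) and from 49.2 to 72.8 CPM in HFL/HFL (median 59.6). The groups overlapped, with 9 of 10 HFL/HFL animals below every HFL/LFL animal. GALNT11 had log2 fold changes of -0.38 (SE 0.11, edgeR adjusted p = 0.00253) in HFH over LFH, -0.49 (SE 0.12, edgeR adjusted p = 0.00125) in HFL/HFH over HFL/LFH and -0.49 (SE 0.11, edgeR adjusted p = 0.000315) in HFL/HFL over HFL/LFL. GALNT2, a broadly made member, was higher only by the first comparison (0.35, 0.10 and -0.11, edgeR adjusted p = 0.0249, 0.649 and 0.573), and it lost that call without LFH animal 27 or 79 or HFH animal 47 (adjusted p up to 0.0646). GALNT1 (-0.13, -0.26 and -0.13), GALNT13 (0.60, -1.49 and 0.93), GALNT14 (-0.35, -0.25 and -0.64), GALNT16 (0.50, -0.44 and -0.068), GALNT18 (0.21, -0.072 and -0.44) and GALNTL5 (1.99, 1.14 and 0.62) were called in none of the 3. The last value of GALNTL5 rests on HFL/LFL animal 44, which held 19 of the 21 counts of its group: without it the value was 3.44 (edgeR adjusted p = 0.0291). Without 1 animal, GALNT1 was lower in HFL/HFH than in HFL/LFH in 2 of 12 fits and GALNT18 in HFL/HFL than in HFL/LFL in 4 of 16. The group medians of GALNT1 lay between 90.6 and 109 CPM.

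**Figure D2:**
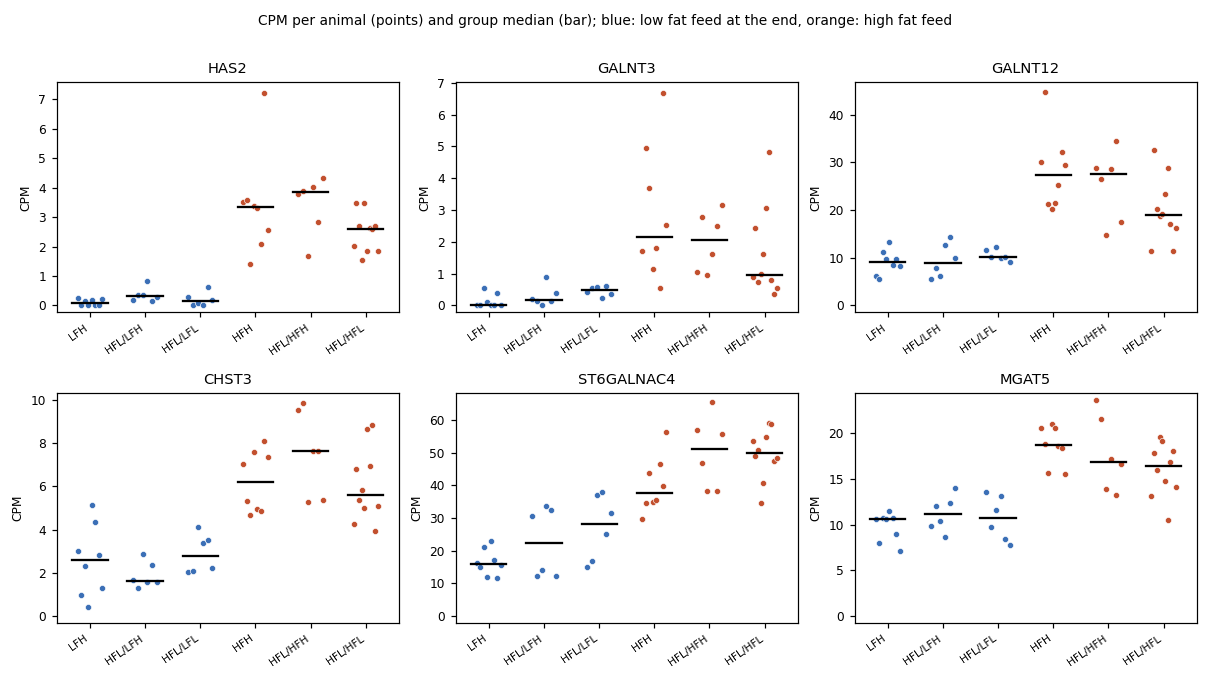
CPM (y axis) of 6 genes that were higher on the high fat feed in all 3 comparisons, with 1 point per animal, a bar at the group median, and the 6 groups along the x axis (low fat feed at the end in blue, high fat feed in orange). HAS2 leaves a gap between 0.840 and 1.40 CPM that holds no animal, while the other 5 genes overlap between the feeds in some animals.

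The sulfation of chondroitin and dermatan sulfate, chains abundant in scar matrix, was represented by 5 genes. CHST3, a chondroitin 6-O-sulfotransferase, was higher on the high fat feed throughout. CHST3 ranged from 0.418 to 5.12 CPM in LFH (median 2.58), from 1.28 to 2.89 CPM in HFL/LFH (median 1.62) and from 2.03 to 4.12 CPM in HFL/LFL (median 2.80). In HFH, CHST3 ranged from 4.66 to 8.10 CPM (median 6.19), while values ran from 5.28 to 9.86 CPM in HFL/HFH (median 7.64) and from 3.93 to 8.85 CPM in HFL/HFL (median 5.61). All HFL/HFH animals were above all HFL/LFH animals, and 9 of 10 HFL/HFL animals were above HFL/LFL. CHST3 had log2 fold changes of 1.29 (SE 0.29, edgeR adjusted p = 0.000244) in HFH over LFH, 2.0 (SE 0.34, edgeR adjusted p = 9.27e-06) in HFL/HFH over HFL/LFH and 1.07 (SE 0.30, edgeR adjusted p = 0.00479) in HFL/HFL over HFL/LFL.

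CHST11, a chondroitin 4-O-sulfotransferase, was higher on the high fat feed in the first and second comparisons and was not called at the change of feed at low vitC. CHST11 ranged from 6.31 to 15.7 CPM in LFH (median 9.40), from 7.53 to 17.2 CPM in HFL/LFH (median 13.2) and from 12.8 to 33.3 CPM in HFL/LFL (median 18.8). In HFH, CHST11 ranged from 15.5 to 23.8 CPM (median 16.2), while values ran from 14.8 to 24.1 CPM in HFL/HFH (median 20.6) and from 16.95 to 23.6 CPM in HFL/HFL (median 20.7). The HFL/LFL animals spread over the whole range of the high fat groups and beyond it. CHST11 had log2 fold changes of 0.82 (SE 0.17, edgeR adjusted p = 0.00014) in HFH over LFH, 0.69 (SE 0.20, edgeR adjusted p = 0.0058) in HFL/HFH over HFL/LFH and -0.083 (SE 0.18, edgeR adjusted p = 0.746) in HFL/HFL over HFL/LFL. CHST7, a second 6-O-sulfotransferase, was called higher in HFL/HFL over HFL/LFL alone (-0.063, 0.26 and 0.38, edgeR adjusted p = 0.0297 in that comparison), a call held in 11 of 16 fits without 1 animal (adjusted p up to 0.122). CHST12 (0.079, 0.34 and 0.31) and CHST13 (0.20, 0.41 and -0.41), also 4-O-sulfotransferases, were not called.

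The chondroitin chain is lengthened by CHSY1 and its partners CHPF and CHPF2. CHPF ranged from 40.2 to 76.3 CPM in LFH (median 59.97), from 57.7 to 82.7 CPM in HFL/LFH (median 71.6) and from 54.1 to 114 CPM in HFL/LFL (median 68.8). In HFH, CHPF ranged from 67.7 to 111 CPM (median 77.7), while values ran from 75.01 to 93.8 CPM in HFL/HFH (median 87.4) and from 52.7 to 126 CPM in HFL/HFL (median 92.2). CHPF was higher in HFH, where 6 of 8 animals were above every LFH animal, and overlapped at the change of feed. CHPF had log2 fold changes of 0.49 (SE 0.14, edgeR adjusted p = 0.00416) in HFH over LFH, 0.28 (SE 0.16, edgeR adjusted p = 0.189) in HFL/HFH over HFL/LFH and 0.18 (SE 0.15, edgeR adjusted p = 0.365) in HFL/HFL over HFL/LFL. CHSY1 rose in HFH over LFH alone (0.34, 0.24 and 0.14, edgeR adjusted p = 0.0297, 0.215 and 0.448), with the call kept in 11 of 16 fits without 1 animal (adjusted p up to 0.0766). CHPF2 ranged from 49.6 to 64.6 CPM in LFH (median 60.1), from 61.3 to 80.8 CPM in HFL/LFH (median 68.2) and from 50.2 to 86.6 CPM in HFL/LFL (median 79.05). In HFH, CHPF2 ranged from 45.9 to 69.9 CPM (median 61.5), while values ran from 49.4 to 79.2 CPM in HFL/HFH (median 65.1) and from 47.9 to 69.5 CPM in HFL/HFL (median 60.1). CHPF2 stood highest in both groups that had left the high fat feed, with medians of 68.2 CPM and more against 60.1 to 65.1 CPM elsewhere. CHPF2 had log2 fold changes of 0.012 (SE 0.10, edgeR adjusted p = 0.935) in HFH over LFH, -0.10 (SE 0.12, edgeR adjusted p = 0.528) in HFL/HFH over HFL/LFH and -0.32 (SE 0.10, edgeR adjusted p = 0.0127) in HFL/HFL over HFL/LFL, the last of which passed.

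Heparan sulfate is the main glycosaminoglycan of the hepatocyte surface and the sinusoid, and its enzymes were few: 6 sulfotransferases, 2 genes of chain polymerization and 1 sulfatase. None of them was called higher, beside 27.7%, 19.4% and 19.7% of all tested genes in the 3 comparisons. Of the 6 sulfotransferases 0, 3 and 2 were lower, beside 21.7%, 16.5% and 18.1% of all genes. NDST1, which starts sulfation by replacing acetyl with sulfate on glucosamine, was lower in animals that stayed on the high fat feed than in those that left it, and was not called in HFH over LFH. HFL/LFL was itself called higher than LFH, a call that held in 5 of 14 fits without 1 animal and was lost without the count minimum and with only the groups compared in the fit. NDST1 ranged from 251 to 412 CPM in LFH (median 322), from 264 to 531 CPM in HFL/LFH (median 388) and from 353 to 472 CPM in HFL/LFL (median 437). In HFH, NDST1 ranged from 227 to 343 CPM (median 287), while values ran from 233 to 295 CPM in HFL/HFH (median 268) and from 202 to 303 CPM in HFL/HFL (median 249). All 10 HFL/HFL animals were below all 6 HFL/LFL animals, and LFH and HFH overlapped. NDST1 had log2 fold changes of -0.20 (SE 0.11, edgeR adjusted p = 0.133) in HFH over LFH, -0.51 (SE 0.13, edgeR adjusted p = 0.00172) in HFL/HFH over HFL/LFH and -0.76 (SE 0.11, edgeR adjusted p = 9.82e-07) in HFL/HFL over HFL/LFL.

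HS6ST1, which adds sulfate at the 6-O position of glucosamine, was likewise lower in animals that stayed on the high fat feed than in those that left it, and HFL/LFL was not called against LFH. HS6ST1 ranged from 62.1 to 97.3 CPM in LFH (median 79.5), from 75.8 to 107 CPM in HFL/LFH (median 91.4) and from 69.9 to 95.5 CPM in HFL/LFL (median 87.3). In HFH, HS6ST1 ranged from 54.6 to 79.99 CPM (median 71.9), while values ran from 57.1 to 75.8 CPM in HFL/HFH (median 69.3) and from 46.6 to 69.5 CPM in HFL/HFL (median 60.7). HFL/HFH lay wholly below HFL/LFH and HFL/HFL wholly below HFL/LFL, at distances of less than 1 CPM between the nearest animals. HS6ST1 had log2 fold changes of -0.21 (SE 0.10, edgeR adjusted p = 0.0757) in HFH over LFH, -0.43 (SE 0.11, edgeR adjusted p = 0.00239) in HFL/HFH over HFL/LFH and -0.49 (SE 0.10, edgeR adjusted p = 0.000138) in HFL/HFL over HFL/LFL. The first passed without LFH animal 27 or 92 or HFH animal 9 (adjusted p from edgeR down to 0.0316). The 3-O-sulfotransferase HS3ST3B1 was lower in HFL/HFH than in HFL/LFH only (-0.25, -0.60 and 0.079, edgeR adjusted p = 0.262, 0.0233 and 0.775), and the call held in 7 of 12 fits without 1 animal (adjusted p up to 0.0716). HS3ST1 (0.15, 0.26 and -0.20), HS3ST4 (0.56, -0.26 and 1.18) and HS6ST2 (-0.20, -0.24 and -0.28) were not called.

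Chain polymerization of heparan sulfate showed no call. EXTL3 adds the first glucosamine that commits a linker to heparan sulfate. EXTL3 ranged from 27.2 to 44.6 CPM in LFH (median 35.4), from 32.6 to 50.2 CPM in HFL/LFH (median 33.6) and from 31.8 to 43.9 CPM in HFL/LFL (median 38.1). In HFH, EXTL3 ranged from 33.8 to 42.9 CPM (median 39.6), while values ran from 27.1 to 40.5 CPM in HFL/HFH (median 34.8) and from 26.5 to 38.7 CPM in HFL/HFL (median 31.1). All groups overlapped, and HFL/HFL over HFL/LFL passed without HFL/HFL animal 90 (edgeR adjusted p = 0.0492). EXTL3 had log2 fold changes of 0.15 (SE 0.11, edgeR adjusted p = 0.26) in HFH over LFH, -0.18 (SE 0.12, edgeR adjusted p = 0.253) in HFL/HFH over HFL/LFH and -0.23 (SE 0.11, edgeR adjusted p = 0.0877) in HFL/HFL over HFL/LFL. EXT2, a subunit of the polymerase, had log2 fold changes of -0.038, -0.23 and -0.27. SULF1 encodes an extracellular enzyme that removes 6-O-sulfate from finished chains. SULF1 ranged from 0 to 2.18 CPM in LFH (median 0.513), from 0.0884 to 5.04 CPM in HFL/LFH (median 1.06) and from 0.678 to 3.79 CPM in HFL/LFL (median 0.997). In HFH, SULF1 ranged from 0.261 to 7.41 CPM (median 1.30), while values ran from 0.335 to 1.68 CPM in HFL/HFH (median 0.889) and from 0 to 3.22 CPM in HFL/HFL (median 0.442). Single animals stood far above the rest in 4 of the groups. SULF1 had log2 fold changes of 1.30 (SE 0.71, edgeR adjusted p = 0.129) in HFH over LFH, -0.75 (SE 0.81, edgeR adjusted p = 0.511) in HFL/HFH over HFL/LFH and -0.72 (SE 0.71, edgeR adjusted p = 0.452) in HFL/HFL over HFL/LFL, and the first was 0.70 without HFH animal 6. The second changed sign in 1 of the other fits. HFL/LFH animal 32 stood at 5.04 CPM and the next animal of its group at 1.65 CPM.

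Of the 3 linker enzymes, B4GALT7 adds the first galactose. B4GALT7 ranged from 56.9 to 72.2 CPM in LFH (median 66.9), from 58.3 to 72.5 CPM in HFL/LFH (median 66.4) and from 54.5 to 89.9 CPM in HFL/LFL (median 69.2). In HFH, B4GALT7 ranged from 48.2 to 61.9 CPM (median 56.9), while values ran from 57.5 to 66.7 CPM in HFL/HFH (median 64.6) and from 54.8 to 69.2 CPM in HFL/HFL (median 62.8). The ranges of the groups overlapped, with 4 of 8 HFH animals below every LFH animal. B4GALT7 had log2 fold changes of -0.21 (SE 0.077, edgeR adjusted p = 0.021) in HFH over LFH, -0.057 (SE 0.089, edgeR adjusted p = 0.661) in HFL/HFH over HFL/LFH and -0.20 (SE 0.079, edgeR adjusted p = 0.0441) in HFL/HFL over HFL/LFL. The first call was lost without HFH animal 14 (adjusted p from edgeR 0.0527) and with upper-quartile normalization (0.121), and the last held in 7 of 16 fits without 1 animal. B3GALT6, which adds the second galactose, had log2 fold changes of 0.56, 0.27 and 0.030, and XYLT1, which starts the linker with xylose, of 1.13, 1.88 and -0.91, and neither was called. Without LFH animal 5 or HFH animal 9 the first value of B3GALT6 passed (edgeR adjusted p = 0.0413 and 0.0287), as it did with upper-quartile normalization, by limma voom and with only the groups compared in the fit. CHST1 (-0.12, -0.25 and -0.27) and CHST2, which sulfate galactose and N-acetylglucosamine in keratan sulfate and other glycans, are the last of the sulfotransferases. CHST2 ranged from 33.1 to 53.4 CPM in LFH (median 41.9), from 30.6 to 42.2 CPM in HFL/LFH (median 34.98) and from 31.1 to 42.8 CPM in HFL/LFL (median 40.7). In HFH, CHST2 ranged from 27.4 to 47.7 CPM (median 31.4), while values ran from 29.3 to 37.2 CPM in HFL/HFH (median 31.4) and from 31.01 to 43.4 CPM in HFL/HFL (median 37.9). HFH overlapped LFH, with 4 of 8 animals below every LFH animal. CHST2 had log2 fold changes of -0.32 (SE 0.10, edgeR adjusted p = 0.00951) in HFH over LFH, -0.15 (SE 0.12, edgeR adjusted p = 0.368) in HFL/HFH over HFL/LFH and -0.066 (SE 0.11, edgeR adjusted p = 0.663) in HFL/HFL over HFL/LFL, and with upper-quartile normalization the first no longer passed (edgeR adjusted p = 0.0519).

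**Figure D3:**
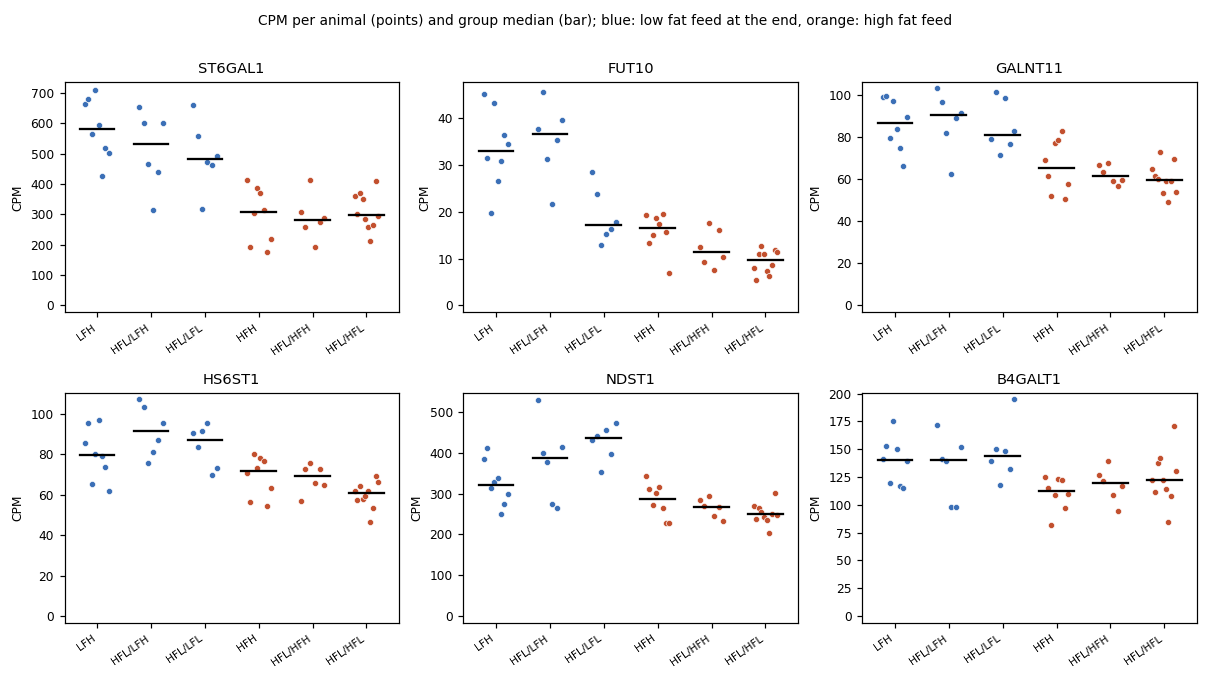
CPM (y axis) of 6 genes that were lower on the high fat feed in at least 1 comparison, with 1 point per animal, a bar at the group median and the 6 groups along the x axis (low fat feed at the end in blue, high fat feed in orange). ST6GAL1 and GALNT11 fall with the feed in each pair of groups, whereas the FUT10 median of HFL/LFL, 17.1 CPM, lies below those of LFH and HFL/LFH.

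Sialyltransferases cap glycans with sialic acid, and 3 of 10 were higher and 1 was lower in HFH than in LFH, beside 27.7% and 21.7% of all genes. Of the higher genes, ST8SIA3 had passed the count minimum only through the high fat groups. ST6GAL1, which puts sialic acid on the N-glycans of liver and plasma proteins, fell. ST6GAL1 ranged from 427 to 708 CPM in LFH (median 580.1), from 313 to 655 CPM in HFL/LFH (median 533) and from 319 to 660.1 CPM in HFL/LFL (median 484). In HFH, ST6GAL1 ranged from 178 to 413 CPM (median 309), while values ran from 192 to 412 CPM in HFL/HFH (median 282) and from 213 to 411 CPM in HFL/HFL (median 298). All 8 HFH animals were below all 8 LFH animals, and 6 of 10 HFL/HFL animals were below every HFL/LFL animal. ST6GAL1 had log2 fold changes of -0.97 (SE 0.17, edgeR adjusted p = 8.63e-06) in HFH over LFH, -0.82 (SE 0.20, edgeR adjusted p = 0.000941) in HFL/HFH over HFL/LFH and -0.67 (SE 0.17, edgeR adjusted p = 0.00211) in HFL/HFL over HFL/LFL.

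ST6GALNAC4, which acts on short O-glycans, rose. ST6GALNAC4 ranged from 11.5 to 22.8 CPM in LFH (median 16.03), from 12.1 to 33.6 CPM in HFL/LFH (median 22.4) and from 15.1 to 37.98 CPM in HFL/LFL (median 28.2). In HFH, ST6GALNAC4 ranged from 29.7 to 56.4 CPM (median 37.6), while values ran from 38.3 to 65.6 CPM in HFL/HFH (median 51.2) and from 34.5 to 58.98 CPM in HFL/HFL (median 49.9). HFH did not overlap LFH, nor HFL/HFH HFL/LFH. In HFL/LFH 3 animals were at 14.1 CPM or less and 3 at 30.6 CPM or more. ST6GALNAC4 had log2 fold changes of 1.28 (SE 0.20, edgeR adjusted p = 1.41e-06) in HFH over LFH, 1.16 (SE 0.23, edgeR adjusted p = 0.000114) in HFL/HFH over HFL/LFH and 0.87 (SE 0.21, edgeR adjusted p = 0.0013) in HFL/HFL over HFL/LFL. ST3GAL5, the synthase of the ganglioside GM3, was higher in the first and second comparisons (0.86, 0.86 and 0.50, edgeR adjusted p = 0.00125, 0.00661 and 0.0808), and in the last without HFL/LFL animal 44 (edgeR adjusted p = 0.0379). ST8SIA3 was also called in these, on few reads: it had 18 counts in total in LFH and 260 in HFH, and 3 counts in HFL/LFH, all from 1 animal, against 91 in HFL/HFH (edgeR adjusted p = 0.0101 and 0.00951). HFH animal 6 stood at 3.44 CPM, the next animal of its group at 1.19 CPM, and without animal 6 the first call was lost (adjusted p from edgeR 0.0676). ST3GAL1 (-0.12, -0.15 and -0.28), ST6GALNAC2 (0.88, 0.65 and 0.67), ST6GALNAC5 (-0.44, -0.30 and -0.41), ST6GALNAC6 (-0.033, -0.15 and 0.017), ST8SIA2 (-1.29, -1.10 and -1.16) and ST8SIA5 (-1.24, -0.55 and -0.33) were not called. ST6GALNAC6 has the same counts as a symbol without a gene name in every animal, so its counts are uncertain.

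FUT10, of the fucosyltransferase family, had the lowest log2 fold change of the called genes in each feed comparison. FUT10 ranged from 19.8 to 45.2 CPM in LFH (median 32.99), from 21.6 to 45.6 CPM in HFL/LFH (median 36.5) and from 12.97 to 28.5 CPM in HFL/LFL (median 17.1). In HFH, FUT10 ranged from 6.97 to 19.5 CPM (median 16.5), while values ran from 7.59 to 17.5 CPM in HFL/HFH (median 11.4) and from 5.41 to 12.7 CPM in HFL/HFL (median 9.76). In all 3 comparisons every animal on high fat feed was below every animal of its low fat group. FUT10 had log2 fold changes of -1.09 (SE 0.20, edgeR adjusted p = 1.93e-05) in HFH over LFH, -1.53 (SE 0.24, edgeR adjusted p = 1.84e-06) in HFL/HFH over HFL/LFH and -1.03 (SE 0.21, edgeR adjusted p = 0.000103) in HFL/HFL over HFL/LFL. FUT4 (0.17, 0.37 and -0.23) and FUT7 (-0.071, -0.20 and 0.33), which build the Lewis x antigens that leukocytes carry, were not called.

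N-glycan branching was represented by MGAT5, whose branch is bound by galectins, and MGAT4B. MGAT5 ranged from 7.09 to 11.5 CPM in LFH (median 10.6), from 8.66 to 14.02 CPM in HFL/LFH (median 11.2) and from 7.73 to 13.6 CPM in HFL/LFL (median 10.7). In HFH, MGAT5 ranged from 15.6 to 21.1 CPM (median 18.8), while values ran from 13.3 to 23.6 CPM in HFL/HFH (median 16.9) and from 10.5 to 19.6 CPM in HFL/HFL (median 16.5). All 8 HFH animals were above all 8 LFH animals, and 20 of 24 animals on high fat feed were above every animal on low fat feed. MGAT5 had log2 fold changes of 0.93 (SE 0.14, edgeR adjusted p = 3.43e-07) in HFH over LFH, 0.66 (SE 0.16, edgeR adjusted p = 0.000984) in HFL/HFH over HFL/LFH and 0.58 (SE 0.14, edgeR adjusted p = 0.00147) in HFL/HFL over HFL/LFL. MGAT4B had log2 fold changes of 0.049, -0.0048 and -0.057, with medians of 204 to 229.8 CPM in the 6 groups.

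The galactosyl- and N-acetylgalactosaminyltransferases that act outside the linker had 7 higher and 1 lower of 9 in HFH (27.7% and 21.7% of all genes), and 4 higher and none lower in both comparisons at the change of feed (19.4% and 16.5% of all genes at high vitC, 19.7% and 18.1% at low vitC). Of these higher genes 4 of 7, 3 of 4 and 2 of 4 had passed the count minimum only through the high fat groups, so nothing is read from these shares. B4GALT1, the main galactosyltransferase of N-glycans, was lower in HFH. B4GALT1 ranged from 115 to 175 CPM in LFH (median 140.3), from 97.95 to 171 CPM in HFL/LFH (median 140.5) and from 117 to 195 CPM in HFL/LFL (median 144). In HFH, B4GALT1 ranged from 81.99 to 125 CPM (median 112), while values ran from 94.3 to 139.7 CPM in HFL/HFH (median 119) and from 84.2 to 171 CPM in HFL/HFL (median 122). The groups overlapped. B4GALT1 had log2 fold changes of -0.33 (SE 0.12, edgeR adjusted p = 0.0219) in HFH over LFH, -0.18 (SE 0.14, edgeR adjusted p = 0.356) in HFL/HFH over HFL/LFH and -0.24 (SE 0.13, edgeR adjusted p = 0.124) in HFL/HFL over HFL/LFL, and the first was lost without LFH animal 46 or HFH animal 9 (adjusted p from edgeR 0.0634 and 0.0566), while the last passed without HFL/HFL animal 90 (0.0453). B4GALT2 rose in HFH over LFH and in HFL/HFL over HFL/LFL (0.82, 0.50 and 1.08, edgeR adjusted p = 0.000883, 0.0932 and 0.000127), B4GALT4 in the first only (0.97, 0.63 and 0.55) and B3GALT4, which makes the ganglioside GM1, in HFL/HFL over HFL/LFL only (-0.030, 0.21 and 0.59). B4GALNT4, which with B4GALNT3 adds N-acetylgalactosamine to N-acetylglucosamine at the ends of N-glycans, rose in the first and second (1.28, 1.47 and 0.48). In HFL/HFH over HFL/LFH, B4GALT2 passed without HFL/LFH animal 33 (edgeR adjusted p = 0.0159) and B4GALT4 without 1 of 3 animals (HFL/LFH 4 or 32 or HFL/HFH 20, adjusted p from edgeR 0.0397 to 0.0465).

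B3GALT5, which makes the type 1 chains of epithelial glycans, had no count in any LFH animal. On low fat feed B3GALT5 otherwise ranged from 0 to 0.0981 CPM in HFL/LFH (median 0) and from 0 to 0.381 CPM in HFL/LFL (median 0). In HFH, B3GALT5 ranged from 0 to 1.02 CPM (median 0.555), while values ran from 0 to 0.874 CPM in HFL/HFH (median 0.470) and from 0.204 to 1.33 CPM in HFL/HFL (median 0.505). In HFH 7 of 8 animals had counts of it, and the mean of HFH was at least 3.29-fold the mean floor of the LFH libraries (edgeR adjusted p = 2.08e-05). HFL/LFH held 4 counts over 6 animals and HFL/HFH 83 (edgeR adjusted p = 0.00544), and HFL/LFL held 12 and HFL/HFL 157 over 10 animals (edgeR adjusted p = 0.0181). B4GALNT2, which makes the Sda blood group antigen, was also near its floor on low fat feed. B4GALNT2 ranged from 0 to 0.344 CPM in LFH (median 0.0558), from 0 to 0.283 CPM in HFL/LFH (median 0) and from 0 to 0.254 CPM in HFL/LFL (median 0.0822). In HFH, B4GALNT2 ranged from 0.175 to 1.01 CPM (median 0.407), while values ran from 0.0834 to 1.05 CPM in HFL/HFH (median 0.372) and from 0.310 to 2.57 CPM in HFL/HFL (median 1.06). All 10 HFL/HFL animals were above all HFL/LFL animals, and HFL/LFH held 5 counts in total, all in 1 animal. B4GALNT2 had log2 fold changes of 2.03 (SE 0.75, edgeR adjusted p = 0.0226) in HFH over LFH, 3.24 (SE 0.97, edgeR adjusted p = 0.00729) in HFL/HFH over HFL/LFH and 3.79 (SE 0.86, edgeR adjusted p = 0.000549) in HFL/HFL over HFL/LFL, the first lost without HFH animal 47 (edgeR adjusted p = 0.0538). All 3 low fat groups were on average under their floors for this gene, with 18, 5 and 12 counts, and the second value was 6.55 without HFL/LFH animal 32 and the last 4.46 without HFL/LFL animal 13, so these sizes are uncertain. B4GALNT3 rose in the first and second (2.59, 3.42 and 1.18) and B3GALT2 in the first (1.79, 1.66 and 1.47), both at means under 1 CPM. Without HFL/LFH animal 33 the second value of B4GALNT3 was 4.19, and without LFH animal 27 the first of B3GALT2 was 2.41. The call of B3GALT2 held in 10 of 16 fits without 1 animal (adjusted p from edgeR up to 0.0586).

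The second question was whether vitC altered these genes. None of the 62 was called in HFL/LFL over HFL/LFH, the comparison of low with high vitC after the change to low fat feed, and 0.219% of all tested genes were called. At an unadjusted p under 0.05 from edgeR there were 7 of the 62 (11.3%), beside 11% of all tested genes. DESeq2 called 2, CHST11 and FUT10, and limma voom with sample quality weights 1, FUT10. As the shares of all genes called by these methods are not given here, their counts cannot be set against the 0.219% from edgeR. The smallest p from edgeR was that of CHST11, with a log2 fold change of 0.76 (SE 0.20, edgeR adjusted p = 0.0751): 3 of 6 HFL/LFL animals were above every HFL/LFH animal. It passed without HFL/LFH animal 43 (edgeR adjusted p = 0.0479), without HFL/LFL animal 17 (0.0259) and by DESeq2 (DESeq2 adjusted p = 0.0238). FUT10 had a log2 fold change of -0.88 (SE 0.23, edgeR adjusted p = 0.0811), with 4 of 6 HFL/LFL animals below every HFL/LFH animal.

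On continued high fat feed, HFL/HFL over HFL/HFH had no call among the 62 genes, and none by DESeq2 or limma voom, beside 0.0129% of all genes called by edgeR. At an unadjusted p under 0.05 there was 1 of the 62 (1.61%), beside 3.37% of all genes. The one gene was B4GALNT2, with a log2 fold change of 1.51 (SE 0.72, edgeR adjusted p = 1). HFL/HFL over HFH, low against high vitC for the whole study, likewise gave no call, beside 0.271% of all genes called, and 11 of the 62 (17.7%) at an unadjusted p under 0.05, beside 17.3% of all genes. DESeq2 called 1 gene there (FUT10) and limma voom 4 (FUT10, B3GALT4, CHST2 and EXTL3). The shares of all genes that these methods called are not given here, so their counts cannot be set against the 0.271% from edgeR. The smallest p from edgeR was that of FUT10, at -0.75 (SE 0.19, edgeR adjusted p = 0.0746), which passed without HFH animal 9 (edgeR adjusted p = 0.0443), HFH animal 88 (0.0138) or HFL/HFL animal 34 (0.0479). The difference of the vitC differences between the feeds gave no call among the 62 genes, none by DESeq2 or limma voom either, and 0% of all 7750 genes were called. At an unadjusted p under 0.05 from edgeR there were 6 of the 62 (9.68%) and 638 of all genes (8.23%). CHST11 had the smallest p of that test too, with a log2 difference of 0.77 (SE 0.27, edgeR adjusted p = 0.444).

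**Figure D4:**
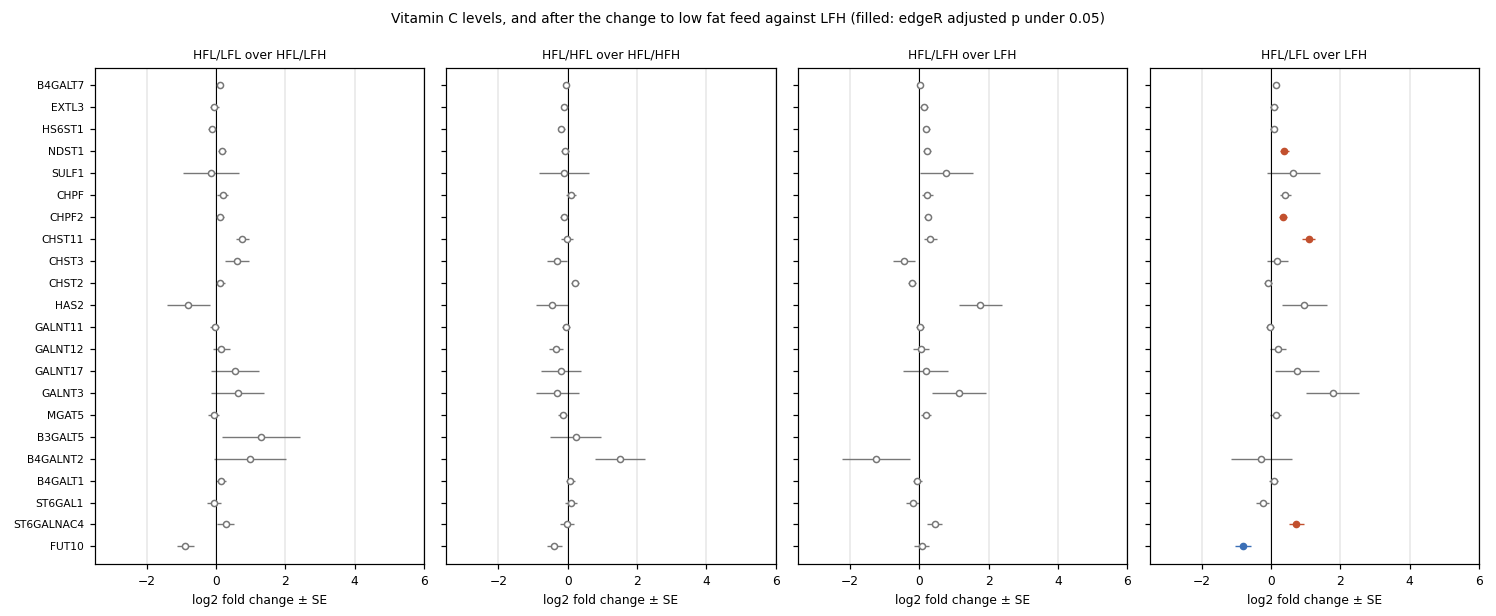
Log2 fold change with SE (x axis) of the 22 genes given with values in all 6 groups (y axis), for low over high vitC on low fat and on high fat feed, and for both groups that left the high fat feed over LFH. Filled points had an edgeR adjusted p under 0.05 (orange higher, blue lower), and B3GALT5 has no point where LFH, with every animal at 0, is the denominator. The first 3 panels hold no filled point, and CHST11 at 1.09 is the filled point farthest to the right in the fourth.

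The third question was what differed from LFH after 16 weeks back on low fat feed. Both groups had first eaten the high fat feed at low vitC, and HFL/LFL stayed at low vitC. Earlier feed and vitC cannot be told apart in these comparisons with LFH. In HFL/LFH, on high vitC, none of the 62 genes was called, DESeq2 and limma voom called none, and 0.361% of all tested genes were called. At an unadjusted p under 0.05 from edgeR there were 7 (11.3%), beside 10.4% of all genes. In HFL/LFL, on low vitC, 5 of 62 (8.06%) were higher and 1 (1.61%) was lower than in LFH, beside 4.43% and 3.48% of all genes. HFL/LFL against HFL/LFH is the vitC comparison on low fat feed, in which none passed. CHST11 was higher in HFL/LFL by 1.09 (SE 0.19, edgeR adjusted p = 0.000191) on the log2 scale, with 4 of 6 animals above every LFH animal, and it was the only call that held in each of the 14 fits without 1 animal, where FUT10 passed in 12, ST6GALNAC4 in 8, CHPF2 in 6, NDST1 in 5 and B3GALT5 in 4. ST6GALNAC4 was higher by 0.72 (SE 0.22, edgeR adjusted p = 0.0309) on that scale, NDST1 by 0.39 (SE 0.12, edgeR adjusted p = 0.037) and CHPF2 by 0.35 (SE 0.11, edgeR adjusted p = 0.0384). Both NDST1 and CHPF2 were also lower in HFL/HFL than in HFL/LFL, which shares its HFL/LFL animals with this comparison. FUT10 was lower, with a log2 fold change of -0.81 (SE 0.22, edgeR adjusted p = 0.0187) and with 4 of 6 HFL/LFL animals below every LFH animal. B3GALT5 was called on 12 counts in 2 of 6 HFL/LFL animals against none in LFH (edgeR adjusted p = 0.046), and since the means of both groups were under the floor no size is given. The count of 6 rests on single animals: it was 1 without HFL/LFL animal 49, 2 without LFH animal 79 and 3 without LFH animal 25, 46 or 92 or HFL/LFL animal 68, and 2 (CHST11 and FUT10) with only the groups compared in the fit. Without the count minimum it was 4, with CHPF2 and NDST1 lost (edgeR adjusted p = 0.0513 and 0.0521), and by limma voom 4, with CHPF2, ST6GALNAC4 and B3GALT5 lost and GALNT3 gained. CHPF passed without HFL/LFL animal 44 (edgeR adjusted p = 0.0426) and GALNT3 without LFH animal 27 (0.0379). Beside these, 2 of 4 cholangiocyte, 3 of 7 neutrophil, 2 of 6 tested B cell and plasma cell, 1 of 6 stellate cell and 1 of 5 macrophage markers were higher in HFL/LFL than in LFH, beside 4.43% of all genes, and their part in the result was not tested.

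**Figure D5:**
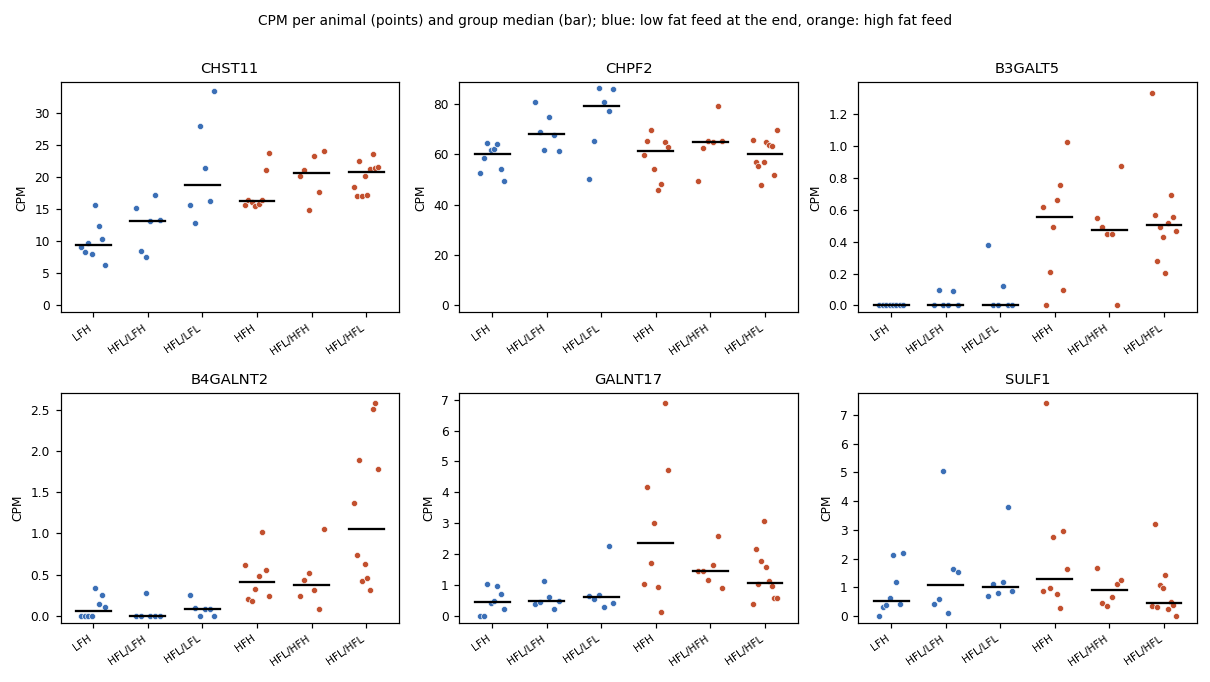
CPM (y axis) of 6 genes in which groups differ in spread, with 1 point per animal, a bar at the group median and the 6 groups along the x axis (low fat feed at the end in blue, high fat feed in orange). CHST11 reaches 33.3 CPM in HFL/LFL, above every animal on high fat feed, B3GALT5 lies at 0 in all LFH animals, and SULF1 has a single high animal in several groups.

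The enzymes work with substrates and carriers made by other genes, and 46 tested genes of 6 lists were followed beside them. In HFH over LFH 13 of the 46 were higher and 6 lower, in HFL/HFH over HFL/LFH 9 and 9, and in HFL/HFL over HFL/LFL 9 and 14. These are 28.3%, 19.6% and 19.6% higher, beside 27.7%, 19.4% and 19.7% of all tested genes, and 13.04%, 19.6% and 30.4% lower, beside 21.7%, 16.5% and 18.1%. In HFL/LFL over LFH 4 of the 46 were higher (8.70%) and 3 lower (6.52%), beside 4.43% and 3.48% of all genes. One proteoglycan gene (2.17% of the 46) was lower in HFL/LFL over HFL/LFH, beside 0.219% of all genes called. In HFL/HFL over HFH it was also 1 (2.17%), beside 0.271%. The other comparisons of vitC or with LFH gave no call. Among 11 genes that make nucleotide sugars and the sulfate donor, 2 were higher and 2 lower in HFH. GFPT2, the entry enzyme of the hexosamine pathway, had a log2 fold change of 2.28 (SE 0.29, edgeR adjusted p = 1.66e-08) and GMDS, which starts GDP-fucose synthesis, one of 0.69 (SE 0.18, edgeR adjusted p = 0.00136). GNPNAT1, a later enzyme of the hexosamine pathway, fell by 0.61 on the log2 scale (edgeR adjusted p = 7.35e-07). In HFL/HFL over HFL/LFL, 6 of these 11 were lower and 1 was higher. Of 4 Golgi transporters of the donors none was called in HFH over LFH and 1 was higher in each of the other feed comparisons. This was SLC35D2, chosen after its values were seen, with log2 fold changes of 0.76 (SE 0.18, edgeR adjusted p = 0.000902) in HFL/HFH over HFL/LFH and 1.01 (SE 0.17, edgeR adjusted p = 6.8e-06) in HFL/HFL over HFL/LFL.

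Of 6 further linker and chondroitin chain genes, CSGALNACT2, which starts the chondroitin chain, was higher at 0.50 (SE 0.089, edgeR adjusted p = 8.38e-06) and PXYLP1, a phosphatase of the linker, lower at -1.37 (SE 0.24, edgeR adjusted p = 9.66e-06). Of 5 other Golgi enzymes 3 were higher and 1 lower, among them UGCG, which makes the glucosylceramide that gangliosides are built on, at 0.91 (SE 0.12, edgeR adjusted p = 2.28e-08), B3GNT2 at 0.44 (SE 0.13, edgeR adjusted p = 0.00466) and GCNT2 at -0.60 (SE 0.19, edgeR adjusted p = 0.0073). Of 7 genes of glycosaminoglycan breakdown 2 were higher, the lysosomal sulfatases GALNS at 0.57 (SE 0.12, edgeR adjusted p = 6.39e-05) and ARSB at 0.62 (SE 0.22, edgeR adjusted p = 0.0182). Among 13 genes of proteoglycan core proteins, 5 were higher and 2 lower in HFH. AGRN, a heparan sulfate proteoglycan of basement membranes, was higher at 1.21 (SE 0.19, edgeR adjusted p = 6.57e-07) and LUM, which also stands in the stellate cell list, at 1.31 (SE 0.22, edgeR adjusted p = 4.04e-06). SDC2, a major cell surface heparan sulfate proteoglycan of the liver, was lower at -1.43 (SE 0.20, edgeR adjusted p = 7.36e-08) and TGFBR3 at -0.88 (SE 0.13, edgeR adjusted p = 4.88e-07). All these values are log2 fold changes of HFH over LFH, where 27.7% of all tested genes were higher and 21.7% lower.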

How the data were processed

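Poly(A) RNA of 44 guinea pig livers was sequenced, 1 library per animal. According to the study's methods and the submitters' processing notes, the authors demultiplexed reads with bcl2fastq 2.19, trimmed them with Trimmomatic 0.38.0, aligned them with HISAT2 2.1.0, quantified them with StringTie 2.1.1 and gave genes the symbols of their human orthologues. The authors deposited whole-number counts for 11967 symbols. How StringTie output became counts is not given in the sources used here. The authors also deposited variance-stabilized values on a log2 scale, made with DESeq2 for 7747 symbols, which served here only to define the 62 genes. Reads shared between related genes, or lost where an orthologue is not annotated, affect single symbols.

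From the counts, the 7750 symbols whose counts summed to 200 or more were fitted with edgeR 4.0.16 in R 4.3.3: TMM normalization, 1 mean for each of 6 groups, all 44 animals in 1 fit, two-sided quasi-likelihood F tests and Benjamini-Hochberg adjustment over all 7750 symbols, with a threshold of 0.05. CPM used the TMM effective library sizes. The SE given with a log2 fold change is that change, without its sign, divided by the square root of its F statistic. It follows from the test and is no separate estimate of the spread. The fit was tested on simulated data. Replicates are separate animals, and total counts ranged from 21133807 to 35427724. Other settings replaced TMM by RLE or by upper-quartile scaling, dropped the count minimum (10453 symbols) or set it by filterByExpr (7791), kept 1 of any symbols with identical counts (7149), restricted the fit to both groups of a comparison, or used DESeq2 1.42.0, limma 3.58.1 voom with sample quality weights, or left out each animal in turn.

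Values in all 6 groups are given for 22 genes: up to 5 per direction with the largest called change in HFH over LFH at a mean of at least 1 CPM, the smallest p in HFH over LFH of each role, the smallest p of each vitC comparison and of the interaction, and up to 5 called genes after the return to low fat feed. From each accompanying list, up to 2 called genes per direction with the smallest p are named, except 1 gene that is not reported here. The genes, roles and lists were chosen with earlier results of these data known. Sequences and coordinates were not used here.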

Additional observations from a re-analysis of the deposited data

Results flagged for a closer look

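In 12 of 132 groups of animals examined over 22 genes (9.09%), 1 animal stood apart from its group by Dixon's test at the 95% level. A rate of about 1 in 20 groups by chance holds for normally distributed values. Several of these genes were near 0 CPM, so the 9.09% is not set against that rate. SULF1 stood apart in 4 groups: at 5.04 CPM in HFL/LFH animal 32 (next animal 1.65), at 3.79 CPM in HFL/LFL animal 53 (next 1.18), at 7.41 CPM in HFH animal 6 (next 2.94) and at 3.22 CPM in HFL/HFL animal 29 (next 1.43). HAS2 reached 7.21 CPM in HFH animal 61 (next 3.59) and 0.840 CPM in HFL/LFH animal 33 (next 0.343). B3GALT5 was at 1.33 CPM in HFL/HFL animal 12 (next 0.688) and at 0.381 CPM in HFL/LFL animal 13 (next 0.122). GALNT17 was at 2.25 CPM in HFL/LFL animal 53 (next 0.664), and B4GALNT2 at 0.283 CPM in HFL/LFH animal 32, with the other animals of that group at 0. The low side held B4GALT7 at 57.5 CPM in HFL/HFH animal 15 (next 63.6) and CHST2 at 31.1 CPM in HFL/LFL animal 49 (next 39.2).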

How the results depend on the processing

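Of 672 values under other settings, for 28 results (19 of HFH over LFH and 9 of the vitC and residual comparisons), 624 kept direction and side of the threshold, 37 no longer passed, 11 newly passed and 0 reversed. Of the feed differences of the 22 genes given in all groups, 9 of 528 values changed sign in HFH over LFH (CHPF2), 1 of 440 in HFL/HFH over HFL/LFH (SULF1) and 3 of 528 in HFL/HFL over HFL/LFL (CHST11), none of them of a called result. The number of the 62 genes called stayed at 27 to 29 (HFH over LFH), 21 to 26 (HFL/HFH over HFL/LFH) and 18 to 21 (HFL/HFL over HFL/LFL) under 8 other settings, and at 25 to 29, 20 to 23 and 17 to 21 without 1 animal. For HFL/LFL over HFL/LFH, DESeq2 called 2, limma voom 1, and fits without 1 animal 0 to 1, against 0. For HFL/HFL over HFH, DESeq2 called 1, limma voom 4, and fits without 1 animal 0 to 1, against 0. For HFL/LFL over LFH, the fit of only the groups compared, with fewer samples, called 2, limma voom and the fit without a count minimum 4 each, and fits without 1 animal 1 to 5, against 6. Otherwise the cause of these differences was not tested. No paired analysis was possible because each animal was in 1 group and animal numbers do not recur between groups. Genes near the floor of 3 counts limit what the depth can show.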
